A study of Mus musculus with 16 samples.

Results

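The genes described here are 38 markers of macrophages, other myeloid cells and leukocytes at large, taken from a named list and followed in embryonic mouse adrenal glands that lacked Dicer in Sf1-expressing cells. Dicer is the enzyme that cuts microRNA precursors. Each gene was read through 1 probe set, the one with the highest mean signal, so that 38 of the 18193 genes with a probe set on the Mouse430_2 array were members. By textbook knowledge they were separated into 13 macrophage-restricted genes, 9 genes shared among myeloid cells, 14 pan-leukocyte genes, and 2 genes better known from other lineages, Pf4 from platelets and Bank1 from B cells. All 38 had a probe set, and 35 were tested. The signals of Hcls1, Itgam and Vav1 were too dim for the filter.

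Pools of whole adrenals were compared in 4 groups of 4 arrays. Dicer knockout (KO) glands, with Sf1-Cre and homozygous floxed Dicer, were taken at embryonic day E15.5 and at E16.5. Wild-type (WT) glands of the same 2 days came from Cre-negative littermates, whose own Dicer alleles could be floxed because of the matings used. All were on C57BL/6. Glands of 1 genotype in a litter were pooled, and 4 litters were used at each day. The Cre is driven by Sf1 regulatory sequences, which are known for their activity in steroid-producing cells, and a pool of whole glands also holds cells without Cre. Markers of the adrenal cortex were strong on every array, with a list mean of 11.2 to 11.9 log2 units in KO glands and 11.7 to 12.3 in WT glands.

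Tissue macrophages of the embryo descend from yolk sac and fetal liver progenitors and settle in organs before birth. Their survival depends on Csf1r, the receptor that binds the growth factors Csf1 and Il34, and their identity depends on the transcription factor PU.1, which Spi1 encodes. Many of their surface receptors carry no signalling tail and work through the small adaptors Tyrobp and Fcer1g, which recruit the kinase Syk. Macrophages clear dying cells, and they are a main source of the C1q proteins that start the classical complement cascade.

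Because PU.1 drives many myeloid promoters that lack a TATA box, the stretch upstream of the start site was read for the member of each class with the largest E16.5 difference (Fcgr1, Clec7a, Cd48 and Bank1) and for Irf8, the member that was lower in KO glands. The letters searched were GAGGAA, the core of many PU.1-type sites, on both strands. Capitals mark them, written TTCCTC where they lie on the opposite strand. Each run is the 150 bases before the RefSeq start site, 5′ to 3′ on the gene's own strand, on mouse build GRCm38.p6. Clec7a and Irf8 have 2 starts listed, of which the first was used. Fcgr1 (chr3:96293970-96294119, minus strand) holds the letters on the opposite strand from position -55 to -50, and Clec7a (chr6:129472780-129472929, minus strand) on its own strand from -96 to -91. Cd48 (chr1:171681842-171681991, plus strand), Bank1 (chr3:136326067-136326216, minus strand) and Irf8 (chr8:120736208-120736357, plus strand) do not hold them in these 150 bases.
Fcgr1: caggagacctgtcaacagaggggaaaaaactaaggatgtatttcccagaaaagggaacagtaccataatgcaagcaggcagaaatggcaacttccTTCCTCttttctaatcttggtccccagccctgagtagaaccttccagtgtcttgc
Clec7a: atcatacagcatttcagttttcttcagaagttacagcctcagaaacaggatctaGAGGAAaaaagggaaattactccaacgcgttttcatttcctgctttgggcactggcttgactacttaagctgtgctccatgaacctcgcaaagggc
Cd48: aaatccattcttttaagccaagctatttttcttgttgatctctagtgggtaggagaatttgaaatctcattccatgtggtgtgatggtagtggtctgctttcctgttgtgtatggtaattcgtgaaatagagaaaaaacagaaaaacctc
Bank1: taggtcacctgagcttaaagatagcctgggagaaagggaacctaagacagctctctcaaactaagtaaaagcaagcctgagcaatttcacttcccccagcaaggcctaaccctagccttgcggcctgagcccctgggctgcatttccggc
Irf8: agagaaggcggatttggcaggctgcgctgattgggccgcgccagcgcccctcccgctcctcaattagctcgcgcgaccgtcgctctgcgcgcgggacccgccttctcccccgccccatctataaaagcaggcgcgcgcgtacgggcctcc
Over windows of 250 bases before to 50 bases after the start, 20 of the 30 members with a window held the letters at least once (66.7%), against 31.3% of 27025 genes in the RefSeq table. Among 32851 windows the share was 28.3%. A match describes the letters and is not shown to be a bound site.

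The arrays were of similar quality apart from 1 of them and, to a lesser degree, 1 more. The median correlation with the other arrays of its group was 0.978 for WT E16.5 replicate 2, against 0.984 to 0.993 for the other 15. Its 3′ minus 5′ signal, a sign of RNA degradation, was 3.25 for Gapdh and 3.05 for actin, against -0.05 to 1.5 and 0.37 to 1.74 on the other 15. The values of 1.5 and 1.74 belonged to KO E16.5 replicate 1, and the next highest were 0.78 and 1.38. The mean signal of an array was 6.35 to 6.37 log2 units in KO glands, against 6.31 to 6.32 in WT glands, and the median KO minus WT difference over all genes was 0.07 at E15.5 and 0.08 at E16.5. Dicer1 itself read 8.0 to 8.36 in KO glands and 8.50 to 8.64 in WT glands at E15.5, and 8.09 to 8.42 in KO glands and 8.45 to 8.83 in WT glands at E16.5. The differences were -0.35 (limma adjusted p = 0.064) and -0.36 (adjusted p = 0.041). Where its probes lie relative to the floxed part is not known here, so this is a weak check of the labels.

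At E16.5, macrophage and leukocyte transcripts were higher in KO than in WT glands for most members of the list. Of the 35 members tested, 29 rose and 0 fell at an adjusted p under 0.05 in limma. Among all 13644 genes, 6.99% rose and 3.55% fell. By unadjusted p, 31 members were higher and 1 lower, and 24.03% of all genes differed in either direction. The median member difference was 1.15 on the log2 scale, against 0.08 over all genes. A difference of more than 1 log2 unit was found in 23 of the 35 members and in 0.96% of all genes. By class, 11 of 13 macrophage-restricted genes rose, 6 of 8 shared myeloid genes, 10 of 12 pan-leukocyte genes, and both Pf4 and Bank1. The members were chosen with earlier results of these data known, so their shares beside all genes are not an independent test at either day. In a bulk gland, more cells of a type and more RNA of these genes per cell cannot be told apart.

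**Figure D1:**
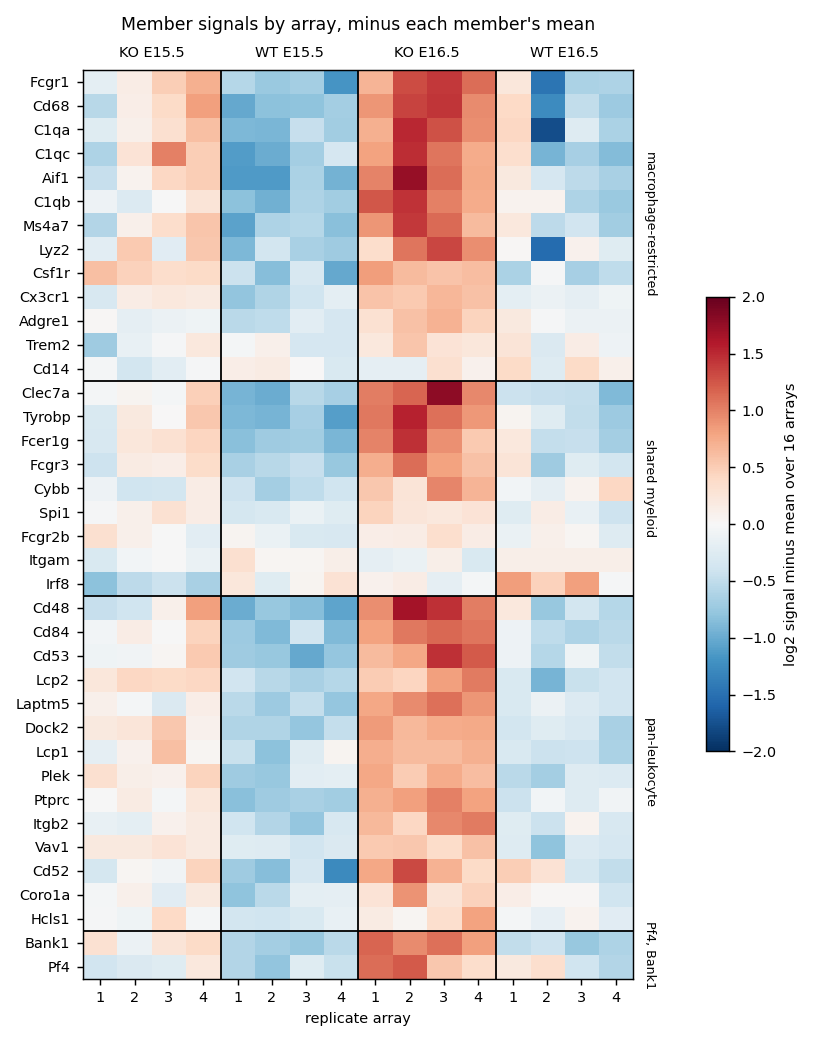
Log2 signal of each of the 38 members (rows, by class and by their difference at E16.5) on each of the 16 arrays (columns, 4 replicates per group), minus the member's mean over the 16 arrays; red is above and blue below that mean. The 4 KO E16.5 arrays are red for nearly every member except Cd14, Itgam and Irf8, whose rows run differently, and WT E16.5 replicate 2 holds the darkest blue cells, in C1qa, Lyz2 and Fcgr1.

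At E15.5 the same direction was seen with smaller differences. Here 19 of 35 members rose, against 3.69% of all genes, and 1, Irf8, fell, against 2.18% of all genes. By unadjusted p, 29 were higher and 1 lower, and 19.0% of all genes differed in either direction. The median member difference was 0.81, against 0.07 over all genes. The classes gave 6 of 13 macrophage-restricted genes, 4 of 8 shared myeloid genes, 8 of 12 pan-leukocyte genes and Bank1. All 19 also rose at E16.5, a further 10 passed at E16.5 and not at E15.5, and 6 passed in the rising direction at neither day. When each array was left out in turn, 13 to 21 members rose at E15.5 and 26 to 29 at E16.5. In these fits the E15.5 count was 2 to 7 for macrophage-restricted, 3 to 5 for shared myeloid and 7 to 8 for pan-leukocyte genes, while the restricted count at E16.5 was 11 in each. The restricted count at E15.5 was 3 without WT E15.5 replicate 1, 3 or 4 or KO E15.5 replicate 2, 2 without WT E15.5 replicate 2 or KO E15.5 replicate 3 or 4, and 2 when the arrays were centred on their dimmest probe sets. It was 3 when a difference as large as the median of the dimmest probe sets (0.0999) was allowed for and 10 with weights for array quality. Of the 19 E15.5 calls, 13 were kept in all 8 such fits. The other 6 were each lost in most of the 8 fits. C1qb was kept only without KO replicate 2, and Fcgr3 and Ms4a7 only without KO replicate 1. Cd48 was kept only without KO replicate 1 or 2, and Fcgr1 only without KO or WT replicate 1. Cx3cr1 was kept only without KO replicate 1 or WT replicate 3 or 4. The adjusted p of these 6 was at most 0.149 over the 8 fits.

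The filter asks for a signal above the 40th percentile on at least 4 arrays, which 1 genotype alone can meet. Bank1, Dock2 and Cd48 lay above the filter on fewer than 4 WT arrays, so only their KO signal carried them in. Leaving those 3 aside, 16 of 32 members rose at E15.5 and 26 of 32 at E16.5. Without any filter all 38 were fitted, and 24 of them rose at E15.5, against 6.19% of all genes, and 31 at E16.5, against 8.62%. Over all 38 members the 4 KO arrays lay above the 4 WT arrays for 25 at E15.5, against 9.8% of the genes tested, and for 31 at E16.5, against 10.4%. The 4 KO arrays lay below the WT arrays for Irf8 and Itgam at E15.5 and for Itgam at E16.5.

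**Figure D2:**
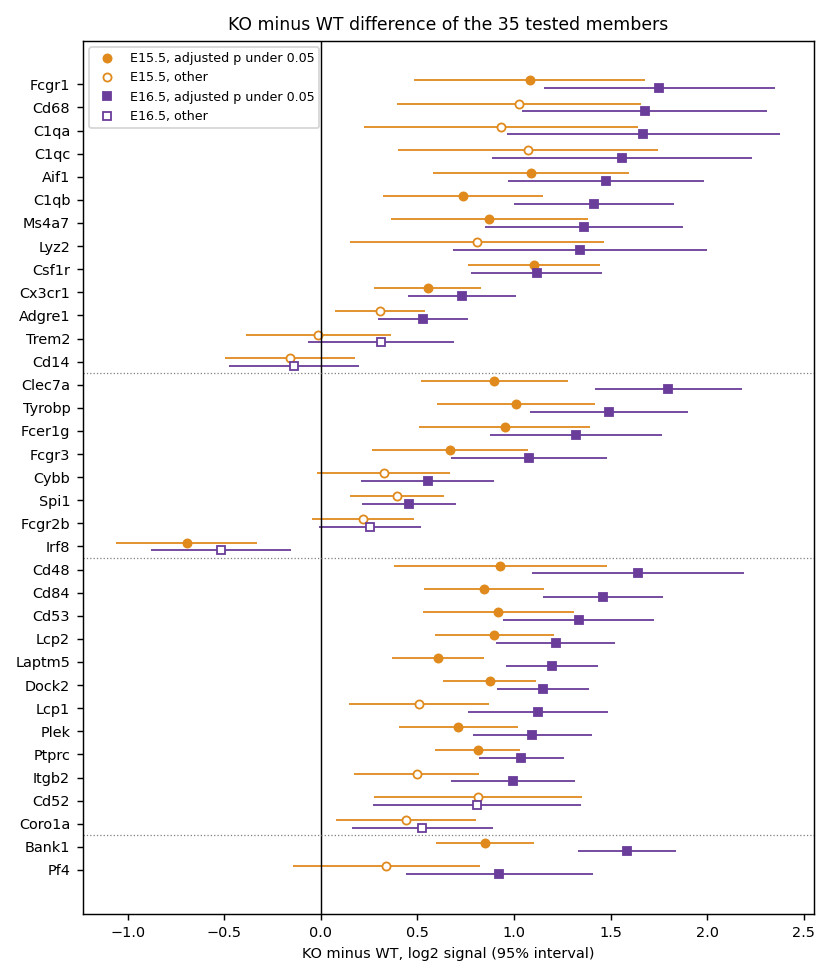
KO minus WT difference in log2 signal with its 95% interval for the 35 tested members, by class and in order of the E16.5 difference, with circles for E15.5 and squares for E16.5 and filled symbols for an adjusted p under 0.05. At E16.5, 33 of the 35 differences lie above 0, against 64.27% of those of all genes. Clec7a (1.80) and Fcgr1 (1.75) lie farthest out, and the intervals of Irf8 lie wholly below 0 at both days.

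Csf1r, the growth factor receptor on which macrophages depend, rose at both days. It read 11.93, 11.79, 11.68 and 11.72 log2 units in KO glands at E15.5 (replicates 1 to 4, the order used throughout), against 10.90, 10.48, 11.01 and 10.30 in WT glands. At E16.5 it read 12.17, 11.95, 11.90 and 11.94 in KO glands, against 10.70, 11.31, 10.66 and 10.83 in WT glands. Every KO value lay above every WT value of either day, and the difference was 1.10 ± 0.16 at E15.5 (SE, limma adjusted p = 4.6e-04). At E16.5 it was 1.12 ± 0.16 (adjusted p = 2.4e-04). The other Csf1r probe sets gave differences of 1.26 and 1.62 at E15.5 and 1.33 and 1.23 at E16.5. Most other members had a larger estimate at the later day, a comparison tested as an interaction further on.

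Fcgr1, the high-affinity receptor for immunoglobulin G, had the largest E16.5 difference of the class. Its signals were 7.17, 7.78, 7.90 and 7.60 in KO glands at E16.5, against 6.71, 5.02, 5.85 and 5.86 in WT glands. At E15.5 they were 6.29, 6.63, 6.98 and 7.19 in KO glands, against 5.91, 5.73, 5.80 and 5.30 in WT glands. The groups did not overlap at either day. The differences were 1.08 ± 0.28 (adjusted p = 0.032) and 1.75 ± 0.28 (adjusted p = 7.0e-04). Its other probe set gave only 0.23 and 0.17 and passed at neither day (adjusted p = 0.22 and 0.35), so the size of the Fcgr1 difference depends on the probes.

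Cd68, a lysosomal membrane glycoprotein widely used to stain macrophages, followed closely. KO glands read 7.73, 8.20, 8.28 and 7.79 at E16.5, against 7.23, 5.58, 6.35 and 6.11 in WT glands. At E15.5 KO glands read 6.28, 6.98, 7.22 and 7.65, against 5.81, 6.02, 6.03 and 6.16 in WT glands. The groups were apart at both days, but the spread among KO pools at E15.5 was wide. The difference of 1.68 ± 0.30 passed at E16.5 (adjusted p = 0.0016) and that of 1.03 ± 0.30 at E15.5 did not (adjusted p = 0.054).

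The 3 chains of complement C1q rose together at E16.5: C1qa by 1.67 (adjusted p = 0.0040), C1qc by 1.56 (adjusted p = 0.0045) and C1qb by 1.41 (adjusted p = 1.6e-04). C1qa read 9.79, 10.59, 10.35 and 9.99 in KO glands at E16.5, against 9.49, 7.29, 8.81 and 8.45 in WT glands. The low value of 7.29 belonged to WT replicate 2, the array with the high 3′ minus 5′ signal, and without it the C1qa difference was 1.26 (adjusted p = 0.0034). At E15.5 C1qb passed (0.74, adjusted p = 0.034), while C1qc (1.07, adjusted p = 0.059) and C1qa (0.93, adjusted p = 0.12) did not. The kept probe sets of C1qb and Laptm5 are of a kind that may also match other transcripts. Of the other C1qb probe sets, 1 of this same kind gave 1.58 at E16.5, and 1 not of it gave 1.63. The kept probe sets of Aif1, Trem2 and Dock2 may match several transcripts as well.

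WT E16.5 replicate 2 was also the lowest of its group for other members. Without that array Lyz2, a lysozyme abundant in macrophages and granulocytes, differed by 0.97 in place of 1.34, Fcgr1 by 1.47 in place of 1.75, and Cd68 by 1.43 in place of 1.68. Each of these still passed (adjusted p = 0.0125, 0.0011 and 0.0039). At E15.5 Lyz2 differed by 0.81 and did not pass (adjusted p = 0.15). Lyz2 was counted as macrophage-restricted, although granulocytes hold it too. In the opposite sense, Csf1r differed by 1.26 and Pf4 by 1.08 without WT E16.5 replicate 2. The number of members that rose was 29 without this array, and 28 when KO replicate 1, next in its 3′ to 5′ signal, was left out as well. Cybb did not pass without it (0.47, adjusted p = 0.083), and Cd52 did (0.91, adjusted p = 0.040).

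Other macrophage-restricted genes that rose at both days were Aif1, a calcium-binding protein of macrophages and microglia (1.09 and 1.48 at E15.5 and E16.5), Ms4a7, a membrane protein of mature macrophages (0.87 and 1.36), and Cx3cr1, the fractalkine receptor of monocytes and microglia (0.55 and 0.73). The adjusted p-values at E15.5 were 0.011, 0.043 and 0.017, and those at E16.5 were between 7.3e-04 and 0.0017. Adgre1, the adhesion receptor that defines mature mouse macrophages, differed less. It read 7.68, 7.48, 7.56 and 7.59 in KO glands at E15.5, against 7.13, 7.16, 7.45 and 7.34 in WT glands, and 7.97, 8.26, 8.36 and 8.12 in KO glands at E16.5, against 7.86, 7.64, 7.55 and 7.54 in WT glands. Although the groups were apart at both days, only the E16.5 difference of 0.53 ± 0.11 passed (adjusted p = 0.0051). At E15.5 it was 0.31 ± 0.11 (adjusted p = 0.12).

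Cd14 and Trem2 were the members of this class that passed at neither day. Cd14, a co-receptor for bacterial lipopolysaccharide, read 5.92, 5.59, 5.74 and 5.94 in KO glands at E15.5, against 6.09, 6.13, 5.97 and 5.65 in WT glands, and 5.78, 5.79, 6.29 and 6.05 in KO glands at E16.5, against 6.34, 5.71, 6.34 and 6.06 in WT glands. The values overlapped at both days, with differences of -0.16 (95% interval -0.50 to 0.18) and -0.14 (-0.48 to 0.20). The upper bounds of Cd14 lie below the median difference of the class, 0.87 at E15.5 and 1.36 at E16.5. Trem2, a lipid-sensing receptor that signals through Tyrobp, read 5.94, 6.50, 6.63 and 6.86 in KO glands at E15.5, against 6.61, 6.76, 6.31 and 6.31 in WT glands. At E16.5 it read 6.86, 7.20, 6.92 and 6.89 in KO glands, against 6.92, 6.37, 6.80 and 6.54 in WT glands. These overlapped too, and the differences of -0.01 (interval -0.39 to 0.36) and 0.31 (-0.06 to 0.69) passed at neither day (adjusted p = 0.98 and 0.31). The sign of the Trem2 difference at E15.5 turned without KO replicate 1 or WT replicate 1 or 2.

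**Figure D3:**
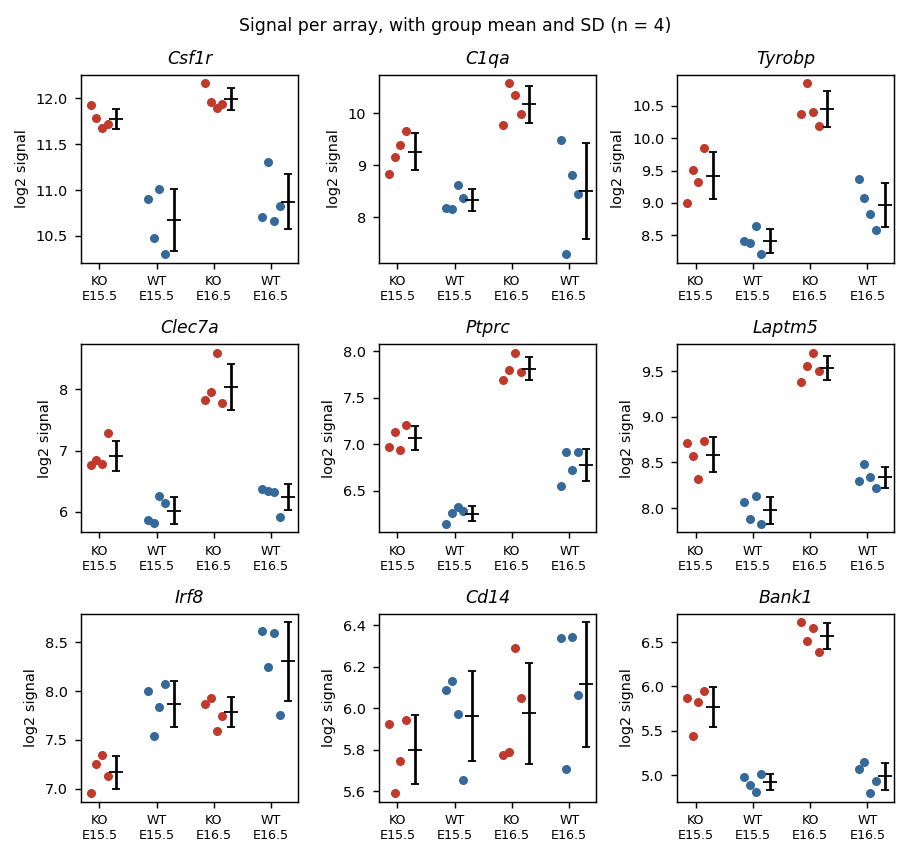
Log2 signal of 9 members on every array, 4 points per group with KO in red and WT in blue, and the group mean with SD beside them; axes differ between panels. KO points lie above WT points at both days for Csf1r, Tyrobp, Clec7a, Ptprc, Laptm5 and Bank1, C1qa shows 1 low WT point at E16.5, Irf8 runs the other way, and Cd14 overlaps.

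Of the shared myeloid genes, Clec7a, the receptor for fungal beta-glucans also known as dectin, had the largest E16.5 difference of all members. Its signals at E16.5 were 7.83, 7.96, 8.60 and 7.77 in KO glands, against 6.38, 6.34, 6.33 and 5.92 in WT glands. At E15.5 they were 6.77, 6.85, 6.78 and 7.28 in KO glands, against 5.88, 5.81, 6.26 and 6.15 in WT glands. All KO values lay above all WT values, by 0.90 ± 0.18 on average at E15.5 (adjusted p = 0.0057) and 1.80 ± 0.18 at E16.5 (adjusted p = 6.7e-06), a 3.48-fold difference.

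Both adaptor genes, Tyrobp and Fcer1g, rose at both days. Tyrobp read 9.0, 9.51, 9.32 and 9.86 in KO glands at E15.5, against 8.41, 8.38, 8.65 and 8.21 in WT glands, and 10.37, 10.85, 10.41 and 10.19 in KO glands at E16.5, against 9.37, 9.08, 8.82 and 8.58 in WT glands. The differences were 1.01 ± 0.19 (adjusted p = 0.0042) and 1.49 ± 0.19 (adjusted p = 8.7e-05). Fcer1g, the common gamma chain of Fc receptors, read 8.31, 8.85, 8.93 and 9.06 in KO glands at E15.5, against 7.79, 7.91, 7.94 and 7.71 in WT glands, and 9.62, 10.09, 9.54 and 9.14 in KO glands at E16.5, against 8.84, 8.14, 8.16 and 7.95 in WT glands. Both adaptors were thus without overlap at both days, with Fcer1g differing by 0.95 ± 0.21 (adjusted p = 0.011) and 1.32 ± 0.21 (adjusted p = 6.1e-04).

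The activating receptor Fcgr3, which pairs with Fcer1g, rose by 0.67 at E15.5 (adjusted p = 0.049) and 1.08 at E16.5 (adjusted p = 0.0015). Fcgr2b, the inhibitory Fc receptor, differed by 0.22 and 0.26 and passed at neither day (adjusted p = 0.39 and 0.22). Its other probe sets gave 0.51, 0.29 and -0.09 at E15.5 and 0.55, 0.27 and 0.32 at E16.5, none of which passed. Fcgr2b and Fcgr3 were not tested against each other. Cybb, a subunit of the phagocyte oxidase, passed at E16.5 alone (0.55, adjusted p = 0.040), and that call was kept only without KO replicate 2 or WT replicate 4 among the 8 fits with 1 array less (adjusted p up to 0.135). A further Cybb probe set gave 0.33 and 0.29 and passed at neither day (adjusted p = 0.39 and 0.42).

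Both lineage factors on the list had smaller or opposite differences. Spi1 read 5.73, 5.86, 6.06 and 5.91 in KO glands at E15.5, against 5.41, 5.45, 5.62 and 5.51 in WT glands, and 6.20, 6.01, 5.97 and 6.03 in KO glands at E16.5, against 5.51, 5.91, 5.61 and 5.35 in WT glands. No KO value fell within the WT range, and the differences were 0.39 ± 0.11 (adjusted p = 0.054) and 0.46 ± 0.11 (adjusted p = 0.017). Without KO E16.5 replicate 1 the later call was lost (adjusted p = 0.057).

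Irf8, a factor that promotes monocyte and dendritic cell fates, was lower in KO glands, and its difference passed at E15.5. It read 6.96, 7.25, 7.35 and 7.13 in KO glands at E15.5, against 8.0, 7.54, 7.84 and 8.07 in WT glands. At E16.5 it read 7.87, 7.93, 7.60 and 7.74 in KO glands, against 8.61, 8.25, 8.59 and 7.75 in WT glands. KO values lay below all WT values at E15.5 and overlapped WT replicate 4 at E16.5. The difference was -0.70 ± 0.17 at E15.5 (adjusted p = 0.023) and -0.52 ± 0.17 at E16.5 (adjusted p = 0.068). A further Irf8 probe set gave -0.97 (adjusted p = 0.0055) and -0.56 (adjusted p = 0.079). The E15.5 call of the kept probe set held without WT replicate 2 or KO replicate 2 or 3 and was lost without each of the other 5 arrays, where the adjusted p was 0.052 to 0.074. The difference ranged from -0.80 to -0.62 over these 8 fits. At E16.5 the difference without WT replicate 4 was -0.70 and passed (adjusted p = 0.0064), and in the other 7 fits with 1 array less it did not. Irf8 was higher at the later day by 0.62 in KO glands and 0.44 in WT glands, neither of which passed.

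Itgam, the integrin chain shared by macrophages and granulocytes, gave no usable measurement. It read 3.36 to 3.66 in KO glands and 3.71 to 3.99 in WT glands at E15.5, and 3.37 to 3.78 in KO glands and 3.78 to 3.79 in WT glands at E16.5. These lie at the floor of the array, with differences of -0.26 and -0.25 that did not pass without the filter (adjusted p = 0.12 at each day). The direction at this level of signal cannot be read as that of the transcript.

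Most pan-leukocyte genes rose too. Ptprc, the CD45 phosphatase on nearly all nucleated blood cells, read 6.97, 7.13, 6.94 and 7.21 in KO glands at E15.5, against 6.15, 6.26, 6.33 and 6.28 in WT glands, and 7.69, 7.80, 7.99 and 7.78 in KO glands at E16.5, against 6.55, 6.92, 6.72 and 6.91 in WT glands. The lowest KO value at E15.5, 6.94, was above the highest WT value at E16.5, 6.92. The differences of 0.81 ± 0.10 and 1.04 ± 0.10 had adjusted p-values of 1.4e-04 and 6.8e-06.

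Cd48 and Cd84, related adhesion receptors of blood cells, had the largest differences of the class at E16.5. Cd48 read 6.80, 7.54, 7.33 and 6.90 in KO glands at E16.5, against 6.08, 5.11, 5.51 and 5.30 in WT glands, and 5.41, 5.47, 5.97 and 6.70 in KO glands at E15.5, against 4.88, 5.11, 5.03 and 4.81 in WT glands. Cd84 read 7.05, 7.29, 7.39 and 7.30 in KO glands at E16.5, against 6.14, 5.73, 5.63 and 5.70 in WT glands, and 6.18, 6.38, 6.23 and 6.69 in KO glands at E15.5, against 5.52, 5.36, 5.86 and 5.36 in WT glands. Neither overlapped at either day. Cd48 differed by 0.93 ± 0.26 (adjusted p = 0.045) and 1.64 ± 0.26 (adjusted p = 5.9e-04), and its WT signal lay mostly below the filter. Cd84 differed by 0.84 ± 0.15 (adjusted p = 0.0019) and 1.46 ± 0.15 (adjusted p = 7.0e-06).

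The tetraspanin Cd53 rose by 0.92 at E15.5 and 1.33 at E16.5, the lysosomal protein Laptm5 by 0.61 and 1.20, and the pleckstrin gene Plek by 0.71 and 1.09. The signalling adaptor Lcp2 differed by 0.90 and 1.22 and Dock2, an activator of the GTPase Rac in leukocytes, by 0.87 and 1.15. All of these passed at both days, with adjusted p between 1.6e-04 and 0.0066 at E15.5 and between 3.6e-06 and 1.6e-04 at E16.5. The actin-bundling Lcp1 and the integrin chain Itgb2 passed at E16.5 (Lcp1 1.12, adjusted p = 4.0e-04, and Itgb2 0.99, adjusted p = 4.4e-04) and not at E15.5 (0.51, adjusted p = 0.10, and 0.50, adjusted p = 0.070). Additional probe sets did not all show these sizes: 1 further Plek probe set gave 0.11 and 0.03, and 1 of Laptm5 gave -0.03 and 0.05. A further Dock2 probe set, below the filter, averaged 5.04 in KO and 4.77 in WT glands at E15.5, and 5.09 and 5.02 at E16.5. Another of Lcp2, also below the filter, was lower in KO glands. It averaged 3.85 against 4.12 in WT glands at E15.5, and 4.01 against 4.25 at E16.5. Over all members, 15 of 17 other tested probe sets had the sign of the kept one at E15.5, and 17 at E16.5.

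Cd52, a small glycoprotein of lymphocytes and macrophages, and Coro1a, an actin-binding coronin of blood cells, passed at neither day. Coro1a, with the smallest E16.5 difference among tested genes of the class, read 8.14, 8.76, 8.13 and 8.32 in KO glands at E16.5, against 8.0, 7.90, 7.89 and 7.47 in WT glands, and 7.83, 7.98, 7.64 and 8.07 in KO glands at E15.5, against 7.06, 7.33, 7.68 and 7.69 in WT glands. It overlapped at E15.5 and not at E16.5. The differences were 0.44 (adjusted p = 0.16) and 0.52 (adjusted p = 0.063). Cd52 differed by 0.81 at both days (adjusted p = 0.075 and 0.053). Of the members below the filter, Vav1, a guanine nucleotide exchange factor of blood cells, read 4.59 to 4.67 in KO glands and 4.02 to 4.16 in WT glands at E15.5, and 4.77 to 5.0 in KO glands and 3.60 to 4.15 in WT glands at E16.5. In the fit without a filter it differed by 0.50 (adjusted p = 0.0075) and 0.93 (adjusted p = 3.1e-05), while Hcls1, a cortactin-like protein of blood cells, differed by 0.36 (adjusted p = 0.14) and 0.43 (adjusted p = 0.065).

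The median difference was 0.87 for the restricted genes and 0.81 for the pan-leukocyte genes at E15.5, and 1.36 for the restricted genes and 1.14 for the pan-leukocyte genes at E16.5. At E16.5 the restricted genes ranged from -0.14 to 1.75 and the pan-leukocyte genes from 0.52 to 1.64, so the ranges overlapped. The pan-leukocyte values include Cd48 and Dock2, which passed the filter through KO arrays. The difference between the classes was not tested.

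Bank1, a scaffold protein of B-cell receptor signalling, rose as well. It read 5.87, 5.44, 5.83 and 5.95 in KO glands at E15.5, against 4.98, 4.89, 4.81 and 5.02 in WT glands, and 6.73, 6.51, 6.66 and 6.39 in KO glands at E16.5, against 5.07, 5.14, 4.80 and 4.94 in WT glands. The WT values all lay below the filter, so the WT level is at the dim end, and the KO values were apart from them at both days. The differences were 0.85 ± 0.12 (adjusted p = 3.5e-04) and 1.58 ± 0.12 (adjusted p = 5.6e-07), the second of which was the lowest p among the members. Pf4, the platelet chemokine that some tissue macrophages also express, read 9.58, 9.67, 9.72 and 10.18 in KO glands at E15.5, against 9.38, 9.17, 9.72 and 9.51 in WT glands, and 11.08, 11.19, 10.50 and 10.31 in KO glands at E16.5, against 10.15, 10.31, 9.56 and 9.37 in WT glands. Pf4 overlapped at E15.5 (0.34 ± 0.23, adjusted p = 0.49) and was barely apart at E16.5 (0.92 ± 0.23, adjusted p = 0.016), a call lost without KO replicate 1 or 2 or WT replicate 3 or 4 (adjusted p up to 0.055).

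Markers of the other blood cells that could carry shared genes were read from separate lists. None of the tested neutrophil markers (6 of 10 listed), mast cell markers (4 of 7), T and NK cell markers (4 of 11) or dendritic cell markers (2 of 6) passed at either day in limma. By unadjusted p, 1 of these, the T-cell receptor component Cd3e, was lower in KO glands at E16.5 (-0.40, adjusted p = 0.075). The B-cell list had 1 tested marker, Cd79b, a B-cell receptor chain, which differed by 0.11 (adjusted p = 0.77) and 0.49 (adjusted p = 0.041). The other 5 B-cell markers with a probe set lay below the filter, and the list mean was 4.47 to 4.57 in KO glands and 4.39 to 4.44 in WT glands at E15.5, and 4.57 to 4.75 in KO glands and 4.42 to 4.65 in WT glands at E16.5. The T and NK cell list mean was 4.93 to 5.05 in KO glands and 4.71 to 4.90 in WT glands at E15.5, without overlap, and 5.0 to 5.22 in KO glands and 4.78 to 5.14 in WT glands at E16.5, with overlap. The neutrophil list mean was 5.22 to 6.13 in KO glands and 5.14 to 6.20 in WT glands at E15.5, and 5.93 to 6.53 in KO glands and 5.95 to 6.20 in WT glands at E16.5, overlapping at both days.

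Some platelet-lineage markers moved beside the members. Of 6 tested megakaryocyte markers, 0 passed at E15.5 in limma (2 by unadjusted p) and 2 at E16.5, the platelet glycoprotein Gp9 (0.72, adjusted p = 0.046) and the platelet tubulin Tubb1 (0.61, adjusted p = 0.045). The list mean was 6.54 to 6.99 in KO glands and 6.08 to 6.55 in WT glands at E16.5. None of 6 erythroid markers passed in limma (1 and 3 higher by unadjusted p at E15.5 and E16.5), with a median of 0.71 at E16.5. None of 7 endothelial markers passed (0 and 2 by unadjusted p), with a median of 0.28. In the cortex list 2 of 7 genes fell at E15.5 and 4 at E16.5, and at E16.5 2 of 6 chromaffin and 1 of 6 capsule markers rose. Of all genes, 2.18% fell at E15.5, and 6.99% rose and 3.55% fell at E16.5. The part of these lists in the members' differences was not tested.

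**Figure D4:**
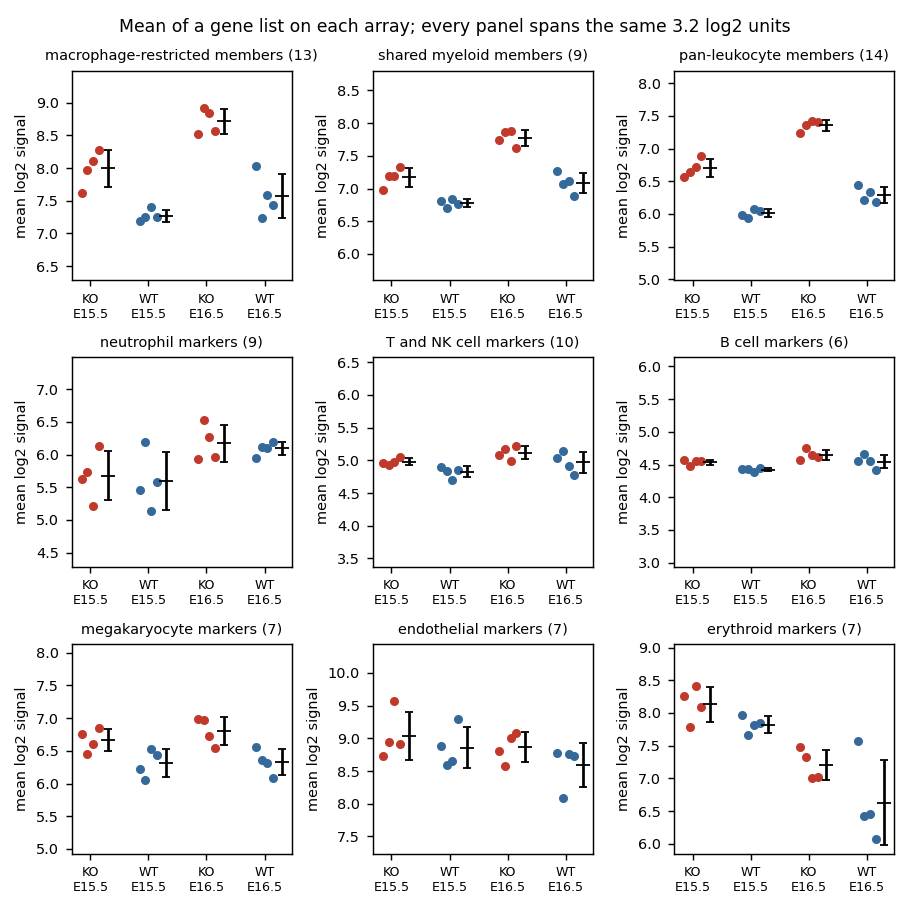
Mean log2 signal per array over the genes of a list (number of genes in brackets), 4 points per group with KO in red and WT in blue and the group mean with SD beside them; every panel spans 3.2 log2 units. The 3 member classes are separated between KO and WT at E16.5, whereas the neutrophil means overlap at both days and the T and NK cell means overlap at E16.5 and are separated at E15.5.

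Genes of adaptor and Csf1r signalling, myeloid transcription factors and genes for the uptake of dying cells were read from 3 further lists. Of 16 tested genes of adaptor and Csf1r signalling, 4 rose at E15.5 and 6 at E16.5, against 3.69% and 6.99% of all genes. In this list 0 fell, and the median differences were 0.19 and 0.42. The largest was the inhibitory receptor Cd300a (1.21, adjusted p = 5.4e-04, and 1.75, adjusted p = 8.5e-06), followed by Syk, the kinase recruited by Tyrobp and Fcer1g (0.60, adjusted p = 0.030, and 0.99, adjusted p = 5.1e-04), and Ptpn6, a phosphatase that restrains these receptors (0.42, adjusted p = 0.016, and 0.67, adjusted p = 3.5e-04). The receptor's ligand Csf1, named here after its values were seen, differed by 0.02 and 0.30 and passed at neither day (adjusted p = 0.96 and 0.097). Il34, the other ligand, lay below the filter, at 3.88 to 4.70 on all 16 arrays.

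Among 11 tested myeloid transcription factors 1 rose and 1 fell at each day. Of all genes, 3.69% rose and 2.18% fell at E15.5, and 6.99% rose and 3.55% fell at E16.5. Whether a list as short as this exceeds those shares was not tested. Batf3, a factor of dendritic cells, rose by 1.25 (adjusted p = 1.9e-05) and 0.92 (adjusted p = 2.2e-04). Cebpb, a factor of macrophage activation that many other tissues express, fell by 0.68 at E15.5 (adjusted p = 0.013) and fell by 0.92 at E16.5 (adjusted p = 9.6e-04), at signals of 10.80 to 11.32 in KO glands and 11.45 to 12.24 in WT glands. Of 11 tested genes for the uptake of dying cells, 0 passed at E15.5 in limma (1 by unadjusted p) and 2 rose at E16.5, the integrin chain Itgav (0.60, adjusted p = 0.022) and the receptor kinase Mertk (0.46, adjusted p = 0.022).

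Within KO glands 12 of the 35 members rose between E15.5 and E16.5, against 0.872% of all genes, and 23 did not pass. All 35 differences were positive, against 51.7% over all genes, with a median of 0.77. By unadjusted p 31 were higher, and 9.51% of all genes differed in either direction. Csf1r (0.21), Spi1 (0.16) and Fcgr2b (0.14) were among those that did not pass. Those that passed were C1qb, Adgre1, Clec7a, Tyrobp, Cybb, Bank1, Cd48, Cd84, Cd53, Laptm5, Ptprc and Itgb2. Among the kept probe sets, Laptm5 had the smallest p, at 0.95 ± 0.11 (adjusted p = 7.4e-04), and Cd48 the largest difference, 1.25 ± 0.26 (adjusted p = 0.027). A further Fcgr2b probe set gave 1.26 in KO glands (limma adjusted p = 0.011) and 1.21 in WT glands (adjusted p = 0.051). Its remaining tested probe sets gave 0.58 and 0.54 in KO glands and did not pass. The other Csf1r probe sets gave 0.09 and -0.40 in KO glands, and neither passed. The count of members that rose was 7 without KO E15.5 replicate 1 or 2 and 6 without KO E16.5 replicate 3. Cd48 and Bank1 passed the filter only through KO arrays. Leaving aside these and Dock2, 10 of 32 members rose within KO glands.

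Within WT glands 0 members passed in limma, and 0.044% of all genes rose. The difference was positive for 34 of 35 members, against 51.64% of all genes, with a median of 0.31. An unadjusted p under 0.05 was found for 12 members and for 7.85% of all genes. Ptprc came nearest (0.52 ± 0.10, adjusted p = 0.082), and without WT E16.5 replicate 1 the count was 1. The list mean over all 38 members was 7.09 to 7.53 in KO glands at E15.5 and 6.63 to 6.77 in WT glands, and 7.89 to 8.09 in KO glands and 6.83 to 7.24 in WT glands at E16.5. For 11 of the 38 members every KO array of E15.5 lay above every WT array of E16.5, and for Irf8 and Itgam every one lay below. The share over all genes was not computed for this comparison across days, so these counts have no baseline.

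**Figure D5:**
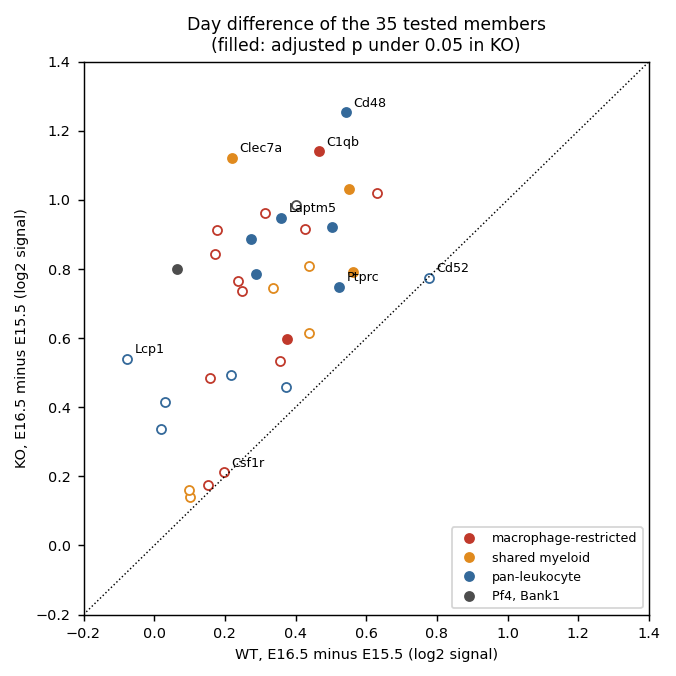
E16.5 minus E15.5 difference in log2 signal of the 35 tested members within WT glands (horizontal) and within KO glands (vertical), coloured by class and filled where the KO difference had an adjusted p under 0.05; the dotted line marks equal differences. 34 of the 35 members lie above the line, where 52.21% of all genes would lie. Cd52 is on the line, and Clec7a and Bank1 lie far above it.

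Whether the KO difference was larger at E16.5 than at E15.5 was tested directly as an interaction. The estimate was positive for 34 of 35 members, against 52.21% of all genes. The median was 0.41 for the members, against 0.0073 over all genes. In limma 0 members passed, as for 0% of all genes. By unadjusted p, 7 members were larger at E16.5: Clec7a (0.90), Bank1 (0.73), C1qb (0.67), Lcp1 (0.62), Cd84 (0.61), Laptm5 (0.59) and Itgb2 (0.50). Of these, Bank1 passed the filter only through KO arrays. Among all genes 1.89% had an unadjusted p under 0.05. Csf1r, at 0.01 ± 0.23, and Cd52, at -0.0040 ± 0.36, were nearest to no change. The day and genotype comparisons use the same arrays, and members share the pools, so their agreement in sign is not a count of independent results.

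In some groups 1 pool was the highest or the lowest for many members at once. Among KO glands at E15.5, replicate 4 was the highest for 25 of the 38 members and replicate 1 the lowest for 22. Among WT glands at E16.5, replicate 1 was the highest for 20, and replicates 4 and 2 were the lowest for 17 and 15. KO E16.5 pools were more even, with replicates 2 and 3 the highest for 14 members each. The order of the arrays was not counted over all genes, so these counts have no baseline.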

How the data were processed

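Affymetrix Mouse430_2 arrays of pooled adrenals were normalised by the authors with RMA and deposited as log2 signals, per the submitters' processing notes. Those notes list limma too, and give no version of either. RMA subtracts background, equalises the distributions of the arrays and summarises the probes of a set, so dim sets are compressed towards a floor. Of 45101 probe sets, 64 were controls, 34945 had 1 gene symbol, 932 several and 9160 none. Symbols of 34741 were updated through their gene ID, which gave 18193 genes, each read by its probe set of highest mean. A gene was tested if it lay above the 40th percentile on at least 4 arrays, which kept 13644 genes and left out 4549.

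Groups followed the labels. A model with 4 group means was fitted to all 16 arrays with limma 3.58.1 in R 4.3.3, and every adjusted p is two-sided, from limma's moderated test with Benjamini-Hochberg adjustment over all genes tested, with a threshold of 0.05. The fit was tested on simulated data first. Members, their classes and the other gene lists were chosen with earlier results of these data known. All members are described. Values on every array are given for the 2 largest and the smallest E16.5 differences of a class, for members with a negative difference, and for 8 named members, to which C1qa was added after its values were seen. From each other list, up to 3 genes among those that passed were named. Alternatives changed the normalisation, the offset, the filter, the probe set rule, array weights, the samples fitted and the replicate block. A pool is 1 replicate, and with 4 per group the SE of a KO minus WT difference had a median of 0.139 over genes, which is the precision these arrays allow.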

Additional observations from a re-analysis of the deposited data

Results flagged for a closer look

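In 9 of 152 sets of 4 arrays (38 members in 4 groups), 1 array lay so far from the other 3 that its gap exceeded Dixon's 95% critical value. Chance alone gives such a gap in about 1 in 20 groups. The 9 fell in 7 members. Clec7a was high in KO E15.5 replicate 4 (7.28, against 6.77 to 6.85 in the other 3) and low in WT E16.5 replicate 4 (5.92, against 6.33 to 6.38). In KO E15.5 replicate 1, Cx3cr1 was low (7.20, against 7.68 to 7.74) and so was Lcp2 (6.44, against 6.6 to 6.61). KO E15.5 replicate 3 was high for Hcls1 (5.04, against 4.56 to 4.63) and for Vav1 (4.67, against 4.59 to 4.60). Fcgr2b was high in KO E16.5 replicate 3 (8.15, against 7.95 to 7.97). WT E16.5 replicate 2, the array with the high 3′ minus 5′ signal, was low for Vav1 (3.60, against 4.07 to 4.15) and gave 3.79 for Itgam, where the other 3 arrays were within 0.01 of 3.78. Hcls1, Vav1 and Itgam were below the filter.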

How the results depend on the processing

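Of 721 values of single members recomputed under another normalisation, filter, probe set rule, weighting or set of samples, 0 reversed, 655 kept their direction and call, 40 lost the call and 26 gained it. With 1 array left out, 495 of 560 values were unchanged in call, 54 lost it, 8 gained it and 3 reversed. The 3 were the Trem2 difference at E15.5, which was 0.168 without KO_E15.5 replicate 1, 0.0243 without WT_E15.5 replicate 1 and 0.0748 without WT_E15.5 replicate 2 (range -0.138 to 0.168 over the 8 fits). The number of members higher in KO glands stayed between 13 (arrays centred on their dimmest probe sets, or a stricter filter) and 28 (array weights) at E15.5, and between 24 (stricter filter) and 31 (array weights, or no filter) at E16.5. These counts have unlike totals, since the stricter filter tested 29 members and the fit without a filter 38. Under the stricter filter 3 of the 29 lost their call at E15.5 and 0 at E16.5. The number of members higher at E16.5 within KO glands was 24 with array weights, 7 with only the groups compared, and 6 to 14 when 1 array was left out. Within WT glands it was 11 with array weights and 0 to 1 when 1 array was left out. The interaction passed for 1 member with array weights, and could not be computed from only the groups compared, since it needs all 4. The cause was not tested. The deviations of same-numbered KO and WT arrays correlated by over 0.1 in 2 of 4 pairs at E15.5 (range -0.39 to 0.39) and in 3 of 4 at E16.5 (-0.20 to 0.45), and no label ties a number to a litter, so the numbers were not taken to pair the arrays. With a replicate block, 16 members were higher at E15.5, 29 at E16.5, 12 at the later day in KO glands and 0 in WT glands, and 0 differed between days. The E15.5 differences of Irf8 (adjusted p = 0.053), Fcgr1 (0.10), Cd48 (0.101) and Fcgr3 (0.098) and the day difference of Cd48 in KO glands (0.067) did not pass with the block, and the day difference of Cx3cr1 in KO glands did (0.049). It changed no other call of a member.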
